A study of Manis javanica with 3 samples.

Results

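Fatty acid and cholesterol synthesis was described through the genes that build these lipids, from the supply of acetyl-CoA in the cytosol to the last steps on the sterol ring, together with the factors that regulate them. A list of 38 gene symbols was looked up in the deposited annotation, by the Swiss-Prot gene name or otherwise by the KEGG symbol, and paralogs were told apart by the product that the NR (non-redundant protein) entry names. Of the 24220 genes in the expression tables, 45 had a listed symbol. A carbamoyl-phosphate synthase among them (1 gene) was left out, 5 genes had another product, and 39 genes remained. These 39 genes covered 36 of the 38 names. ACACA was held by 2 gene models and SREBF2 by 3, each on a scaffold of its own. For 6 genes the product gave another name than the symbol: ACACB, ELOVL1, ELOVL2, ELOVL6 and 2 of the SREBF2 models are named here by their product. FDPS had an NR entry for a hypothetical protein and was named by its symbol. SCAP and THRSP were found by product only, so they are given beside the 39 genes and not counted among them.

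The samples were liver, salivary glands and small intestine, taken from 1 adult female Malayan pangolin (*Manis javanica*), a wild individual that died during rescue and had no experimental treatment. RNA of each tissue was sequenced on an Illumina HiSeq instrument as 1 library. No value has therefore a replicate check, no p-value is given, and tissue, dissection and library cannot be told apart. The total counts were 14568778 for liver, 8318686 for salivary glands and 10158924 for small intestine.

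The labelled tissues were checked against marker genes. In the liver library 5 of 5 hepatocyte genes had an FPKM (fragment counts scaled to transcript length and to mapped fragments) above 1, and tyrosine aminotransferase (4316) and alpha-2-HS-glycoprotein (699) were the highest. In the salivary gland library 4 of 4 matched salivary genes were above 1, led by aquaporin-5 (94.3) and lactotransferrin (59.1). In the liver and in the small intestine 3 of these 4 were above 1 as well. Aquaporin-5 and lactotransferrin were highest in the salivary gland library, but the amylase gene of the list was lowest there. Its product is named pancreatic alpha-amylase-like, and its FPKM was 5.39 in the salivary glands, 8.56 in the small intestine and 16.3 in the liver. The library labelled small intestine went against its label: 1 of 6 enterocyte genes was above 1 (villin-1, 24.0), sucrase-isomaltase had 2 counts, and intestinal fatty acid-binding protein and lactase had 0. Of 6 gastric genes, 5 were above 1 there, led by TFF1 (1148) and ATP4A (1073), and their summed FPKM was 3365, compared with 3.35 in the salivary glands and 0 in the liver. The part of these cells in the results below was not tested.

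In the cytosol, ATP-citrate lyase releases acetyl-CoA from citrate, acetyl-CoA carboxylase turns it into malonyl-CoA, and fatty acid synthase builds palmitate from both. Desaturases and elongases remodel the chain in the endoplasmic reticulum, and acyltransferases store it as triglyceride. The same acetyl-CoA also enters the mevalonate pathway, which leads through squalene and lanosterol to cholesterol, and the SREBP transcription factors, held back by the INSIG proteins when sterols are plentiful, switch these genes on. In mammals the liver is a major site of both syntheses.

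Most of the 39 genes were expressed in every library. An FPKM above 1, the threshold for an expressed gene in the study, was reached by 35 genes in the small intestine and by 33 genes in each other library. Over all genes, 59.4% reached it in the small intestine, 56.3% in the salivary glands and 57.0% in the liver. In all 3 libraries 30 genes were above 1, where 46.9% of all genes were. ELOVL3 had no count in any library, and FADS3 had none in the liver. The summed FPKM of the 39 genes was 1031 in the liver (0.165% of the FPKM of all genes), 705 in the salivary glands (0.118%) and 716 in the small intestine (0.10%). Below, a set of 3 values gives the small intestine first, then the salivary glands, then the liver. In bulk RNA, fewer cells of a type and less RNA per cell cannot be told apart.

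**Figure D1:**
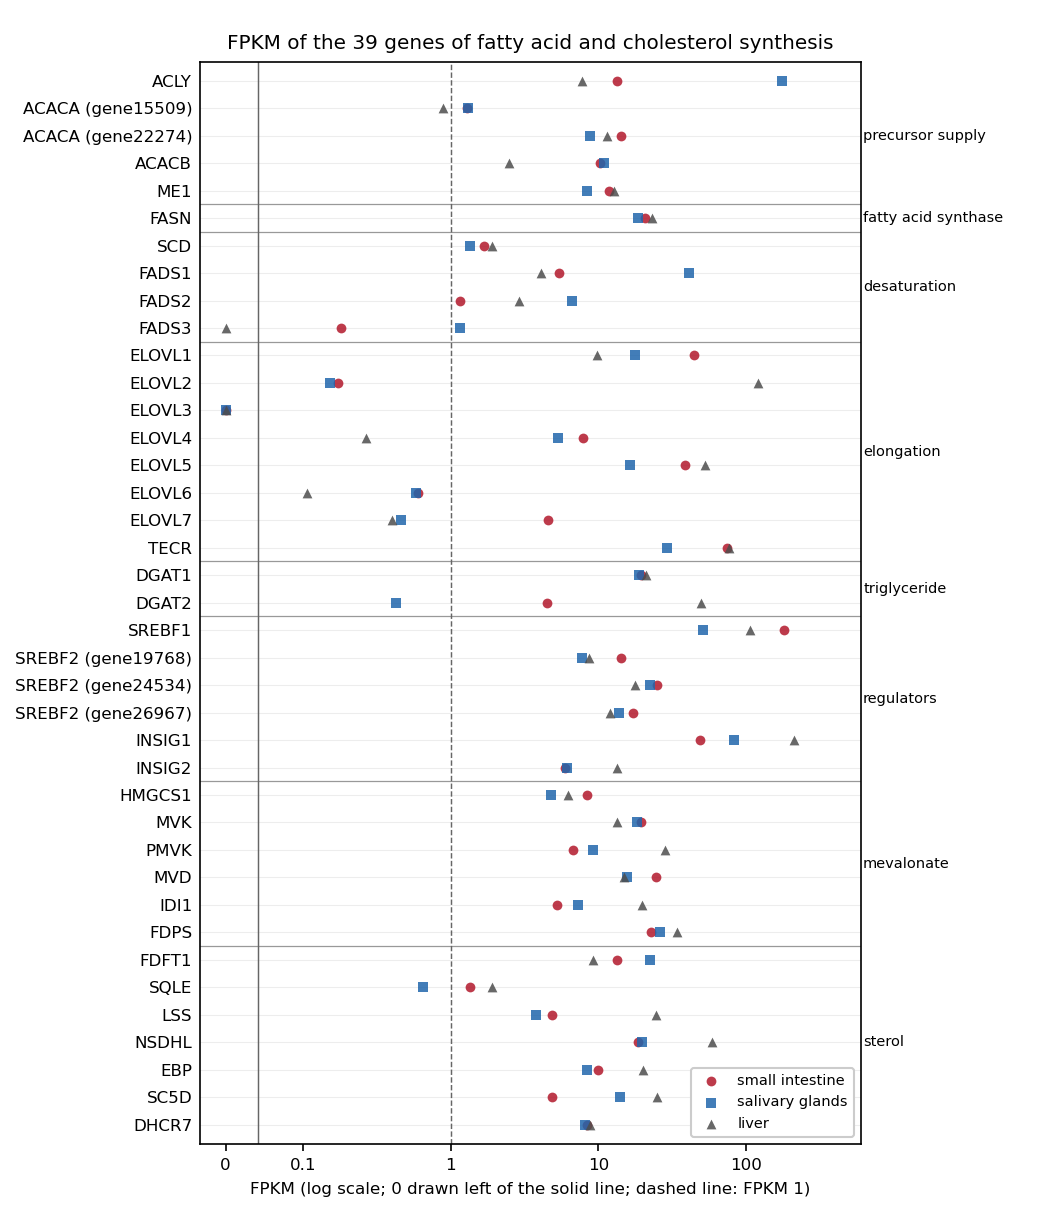
FPKM (log scale) of the 39 genes, grouped by step, with 1 point per library and values of 0 drawn left of the solid line. ACLY and FADS1 stand to the right in the salivary gland library, ELOVL2 and DGAT2 in the liver library, while FASN lies between 18.5 and 23.2 in all 3.

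Precursor supply differed most between the libraries at ATP-citrate lyase. ACLY (gene8968, scaffold NW_016533180.1, 1714 to 40715, plus strand) had an FPKM of 13.4, 174 and 7.72 (596, 9123 and 608 counts). It was the gene of rank 245 by FPKM in the salivary gland library, but of rank 4625 for small intestine and 7131 for liver. The salivary gland library was 13.6-fold above the small intestine (95% counting interval 12.5 to 14.8) and 22.6-fold above the liver (20.8 to 24.6), on TMM-scaled counts. Each interval is exact (Clopper-Pearson, given the total of both counts) and covers counting error only. Adipocytes are a known site of fatty acid synthesis. Of 8 adipocyte genes, 4 were above an FPKM of 1 in the salivary gland library, led there by FABP4 (18.5) and perilipin-1 (4.28). In the small intestine 4 were above 1 as well, and in the liver 2. Their summed FPKM was 27.2 in that library, 71.4 in the small intestine and 10.7 in the liver. Lipoprotein lipase alone gave 60.8 of the small intestine's sum, and without it the salivary gland library was highest, at 24.6 against 10.6 and 5.05. FABP4 gave 18.5 of that 24.6, and was 1.70 in the small intestine and 0 in the liver. Other genes of the list had another order. Perilipin-1 was highest in the liver (3.88, 4.28 and 4.97), and CIDEC in the small intestine (3.98, 1.19 and 0.0773). Adiponectin, a defining gene of adipocytes, had 9 counts in the salivary glands, against 0 and 0, and leptin had 0 in all 3 libraries. The part of adipocytes in the ACLY ratio was not tested.

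The carboxylases did not share this pattern. ACACA, the carboxylase of fatty acid synthesis, had an FPKM of 14.4, 8.75 and 11.4 in its longer model (gene22274, with 657, 530 and 918 counts) and of 1.30, 1.31 and 0.887 in the shorter (gene15509, with 37, 45 and 40 counts). With both models summed, the liver was 0.815-fold the small intestine (0.739 to 0.900) and 1.11-fold the salivary glands (0.997 to 1.23). ACACB, the carboxylase whose malonyl-CoA restrains mitochondrial fatty acid uptake, had an FPKM of 10.3, 10.9 and 2.47 (925, 1222 and 419 counts). It was 3.74-fold higher in the small intestine (3.33 to 4.20) and 4.39-fold higher in the salivary glands (3.93 to 4.92) than in the liver. ME1, the cytosolic malic enzyme that supplies NADPH, had an FPKM of 11.8, 8.36 and 12.7 (270, 189 and 425 counts), all within 2-fold of each other. Its mitochondrial NADP-dependent paralog (gene2699), set apart by its product, had 4.18, 6.91 and 0.0361 (63, 138 and 2 counts).

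Fatty acid synthase itself was even across the libraries. FASN (gene24607) had an FPKM of 20.7, 18.5 and 23.2 (1699, 1952 and 4186 counts). The liver was 1.46-fold above the small intestine (1.38 to 1.54) and 1.42-fold above the salivary glands (1.35 to 1.5), and the small intestine was 0.979-fold the salivary glands (0.916 to 1.04). The 13.6-fold and 22.6-fold excess of ACLY in the salivary gland library had no counterpart at FASN. THRSP, the small partner of lipogenesis, had 1, 1 and 0 counts.

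Of the 4 desaturases listed, FADS1, FADS2 and FADS3 had their highest FPKM in the salivary gland library, and SCD its lowest. FADS1, the delta-5 desaturase of polyunsaturated fatty acids (gene4662, scaffold NW_016529888.1, 603922 to 620465, minus strand), had an FPKM of 5.40, 40.8 and 4.08 (226, 1965 and 325 counts). The salivary glands were 7.73-fold above the small intestine (6.74 to 8.91) and 9.10-fold above the liver (8.09 to 10.3). FADS2, the delta-6 desaturase that acts before it, had 1.15, 6.61 and 2.93 (36, 228 and 175 counts). For FADS2 the salivary glands were 5.63-fold above the small intestine (3.95 to 8.25) and 1.96-fold above the liver (1.60 to 2.40). The liver was 2.87-fold above the small intestine for FADS2 (1.997 to 4.23), an interval that reaches just under 2-fold. FADS3, which desaturates sphingoid bases, had 0.181, 1.15 and 0 (4, 24 and 0 counts), so the salivary glands were 5.34-fold above the small intestine (1.83 to 21.2) and at least 12.0-fold above the liver, counted against a floor of 3 counts in the liver. FADS2 and FADS3 lie side by side on scaffold NW_016543648.1, and they are also next to each other in the RefSeq assembly MJ_LKY. SCD, the delta-9 desaturase that makes oleate, was low throughout, with an FPKM of 1.68, 1.36 and 1.91 (100, 79 and 153 counts). Its liver ratio was 0.904 to the small intestine (0.698 to 1.17) and 1.29 to the salivary glands (0.974 to 1.71).

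Among the elongases ELOVL2 led in the liver library, while ELOVL1 and ELOVL5 led in both others. ELOVL2, which lengthens polyunsaturated chains (gene6382, scaffold NW_016531026.1, 29683 to 50610, plus strand), had an FPKM of 0.174, 0.152 and 119.9, from 2, 3 and 2548 counts. The liver was 753-fold above the small intestine (208 to 6218) and 564-fold above the salivary glands (193 to 2737), where the few counts of the other libraries set the width. ELOVL2 took 65.5% of the FPKM of the 7 elongases in the liver, 0.372% in the salivary glands and 0.179% in the small intestine. ELOVL5, of the same substrate class, had 38.9, 16.5 and 52.5 (800, 378 and 1535 counts) and was 2.38-fold higher in the small intestine (2.10 to 2.70) and 2.70-fold higher in the liver (2.41 to 3.03) than in the salivary glands. The first of these ratios fell under 2-fold by library size alone, at 0.79 on the log2 scale.

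ELOVL1, which elongates saturated very long chains, had an FPKM of 44.7, 17.8 and 9.79 (542, 256 and 222 counts). The small intestine was 2.38-fold above the salivary glands (2.05 to 2.77), again 0.79 on the log2 scale by library size alone, and 4.13-fold above the liver (3.53 to 4.85). ELOVL5 took 40.3% of the elongase FPKM in the salivary glands and 40.2% in the small intestine. ELOVL1 took 43.6% of the elongase FPKM in the salivary glands and 46.1% in the small intestine, but 5.35% in the liver. ELOVL7 had 4.60, 0.464 and 0.399 (117, 12 and 12 counts), so the small intestine was 11.0-fold above the salivary glands (6.04 to 21.8) and 16.5-fold above the liver (9.10 to 32.9). ELOVL4, the elongase of ultra-long chains, had 7.89, 5.37 and 0.268 (57, 44 and 3 counts) and was 32.2-fold (10.5 to 161) and 22.1-fold (7.08 to 111) higher in these first 2 libraries than in the liver. ELOVL6, which carries palmitate to stearate, was low in all 3 libraries, at 0.603, 0.584 and 0.107 (29, 33 and 8 counts), and 6.14-fold (2.74 to 15.5) and 6.21-fold (2.81 to 15.6) lower in the liver than in the other libraries. TECR, the reductase that closes each elongation cycle, had 74.2, 29.2 and 76.6 (738, 302 and 1422 counts) and was 2.75-fold (2.40 to 3.15) and 3.13-fold (2.76 to 3.55) higher in the small intestine and the liver than in the salivary glands. Its span overlaps the DNAJB1 gene on the other strand (500, 1399 and 2173 counts), and the libraries were not stranded.

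**Figure D2:**
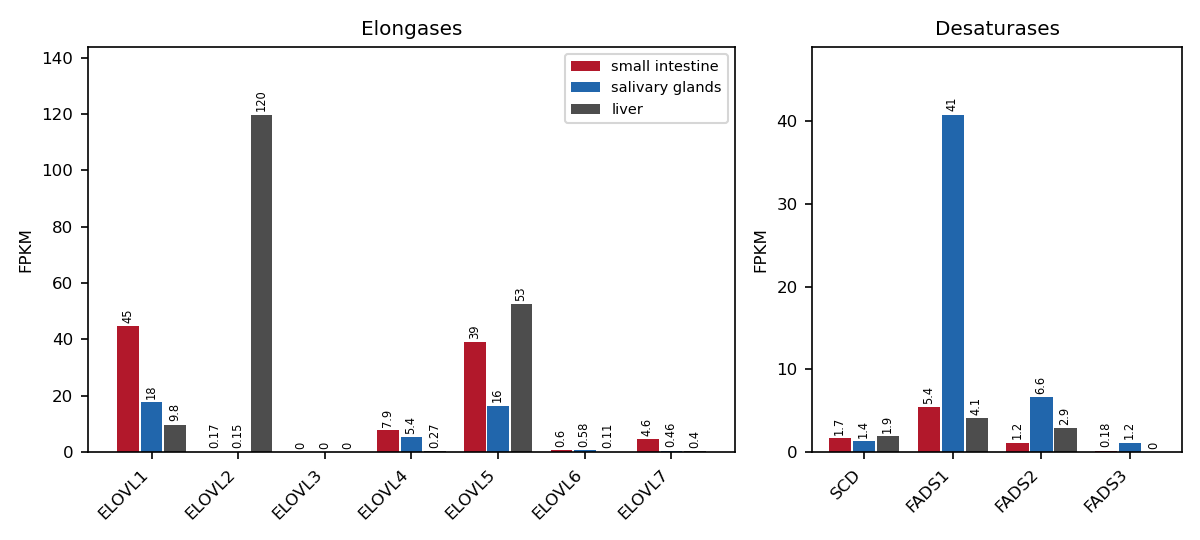
FPKM of the 7 elongases and 4 desaturases, with 1 bar per library. ELOVL2 is the tallest elongase bar in the liver (119.9) and near 0 elsewhere, and FADS1 is the tallest desaturase bar, in the salivary gland library (40.8).

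The 2 enzymes of the last step of triglyceride synthesis differed from each other. DGAT1 was even, with an FPKM of 19.5, 18.9 and 21.2 (310, 364 and 701 counts). DGAT2, the isoform tied to newly made fatty acids (gene15640, scaffold NW_016539352.1, 53470 to 90703, minus strand), had 4.47, 0.427 and 49.2 (67, 19 and 2107 counts). On counts the liver was 18.6-fold above the small intestine (14.6 to 24.1) and 73.7-fold above the salivary glands (47.0 to 123), and the small intestine was 3.96-fold above the salivary glands (2.35 to 6.99). The ratios of its FPKM were 11.0, 115 and 10.5, more than 1.5 times away from those of the counts.

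The regulators were led by SREBF1 and INSIG1. SREBF1, the factor that drives the fatty acid genes (gene25964, scaffold NW_016586416.1, 57951 to 78422, minus strand), had an FPKM of 180.8, 51.3 and 106.7 (6727, 2526 and 8653 counts) and was of rank 244 in the small intestine library. It was 2.99-fold higher in the small intestine (2.86 to 3.14) and 2.28-fold higher in the liver (2.18 to 2.38) than in the salivary glands, the latter 0.97 on the log2 scale by library size alone. The small intestine was 1.32-fold above the liver (1.27 to 1.36). The salivary gland library was thus lowest for SREBF1 and highest for ACLY. The SREBF2 models, for the factor that drives the cholesterol genes, had 24.9, 22.5 and 17.8 (gene24534, with 663, 754 and 963 counts), 17.2, 13.9 and 12.0 (gene26967, with 257, 262 and 349 counts) and 14.2, 7.78 and 8.63 (gene19768, with 138, 99 and 170 counts). With the 3 models summed, the liver was 0.827-fold the small intestine (0.764 to 0.896) and 0.883-fold the salivary glands (0.816 to 0.955).

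INSIG1, which keeps the SREBP precursors in the endoplasmic reticulum, had an FPKM of 48.5, 83.0 and 210.4 (1016, 1473 and 5587 counts). The liver was 3.25-fold above the small intestine (3.04 to 3.48) and 2.52-fold above the salivary glands (2.38 to 2.67). INSIG2, its paralog, had 5.96, 6.17 and 13.4 (77, 83 and 267 counts), with liver ratios of 2.05 (1.58 to 2.68) and 2.14 (1.66 to 2.77), the latter 0.88 on the log2 scale by library size alone. SCAP, the escort of the precursors, had 20.5, 21.3 and 19.1 (748, 996 and 1468 counts).

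In the mevalonate pathway, PMVK and IDI1 were higher in the liver and the other enzymes were within 2-fold. PMVK, phosphomevalonate kinase, had an FPKM of 6.72, 9.27 and 28.1 (70, 137 and 680 counts), and the liver was 5.74-fold above the small intestine (4.48 to 7.45) and 3.30-fold above the salivary glands (2.74 to 3.99). IDI1, which isomerises isopentenyl diphosphate, had 5.25, 7.27 and 19.9 (101, 162 and 522 counts), with liver ratios of 3.05 (2.46 to 3.82) and 2.14 (1.79 to 2.57), the latter 0.88 on the log2 scale by library size alone. HMGCS1, the synthase that opens the pathway, had 8.40, 4.81 and 6.19 (239, 154 and 246 counts). The liver was here 0.608-fold the small intestine (0.507 to 0.730), so the entry enzyme did not share the pattern of PMVK. MVK, mevalonate kinase, had 19.4, 18.4 and 13.5 (567, 651 and 697 counts). For MVD, the decarboxylase, the FPKM was 24.6, 15.6 and 14.8 (346, 279 and 437 counts), and for FDPS, which makes farnesyl diphosphate, 22.8, 26.3 and 34.3 (281, 383 and 718 counts).

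From squalene to cholesterol, the middle enzymes were higher in the liver and the first was not. FDFT1, squalene synthase, had an FPKM of 13.4, 22.5 and 9.18 (444, 863 and 526 counts). It was 2.47-fold higher in the salivary glands than in the liver (2.21 to 2.76) and 1.73-fold higher than in the small intestine (1.54 to 1.94). SQLE, the epoxidase that follows it, was low, with 1.36, 0.650 and 1.91 (30, 18 and 64 counts), and was 2.36-fold higher in the liver than in the salivary glands (1.38 to 4.23). The span of SQLE overlaps a gene for the WASH complex subunit strumpellin on the other strand (55, 74 and 111 counts). LSS, which closes the rings to lanosterol (gene20276, scaffold NW_016547129.1, 163493 to 191967, minus strand), had 4.87, 3.81 and 24.4 (197, 181 and 2002 counts), and the liver was 6.0-fold above the small intestine (5.18 to 6.99) and 7.35-fold above the salivary glands (6.31 to 8.60).

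NSDHL, which helps to remove the methyl groups of lanosterol, had an FPKM of 18.6, 19.7 and 58.4 (187, 241 and 1034 counts), with liver ratios of 3.27 (2.79 to 3.84) and 2.85 (2.47 to 3.29). EBP, the sterol isomerase, had 9.88, 8.37 and 20.0 (179, 153 and 684 counts), with liver ratios of 2.26 (1.91 to 2.68) and 2.97 (2.49 to 3.56). SC5D, lathosterol oxidase, had 4.86, 14.1 and 24.8 from 10, 30 and 71 counts, since its model holds 502 bases on a short scaffold. Its liver library was 4.19-fold above the small intestine (2.15 to 9.12) and 1.57-fold above the salivary glands (1.01 to 2.50), and the salivary glands were 2.67-fold above the small intestine (1.27 to 6.12). A further model with this product but another symbol (gene19945) had 5.01, 9.10 and 18.7 (103, 160 and 323 counts). DHCR7, the last reductase, had 8.38, 8.15 and 8.78 (102, 118 and 300 counts). Its counts gave a liver ratio of 1.74 to the small intestine (1.38 to 2.20), while its FPKM gave 1.05.

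**Figure D3:**
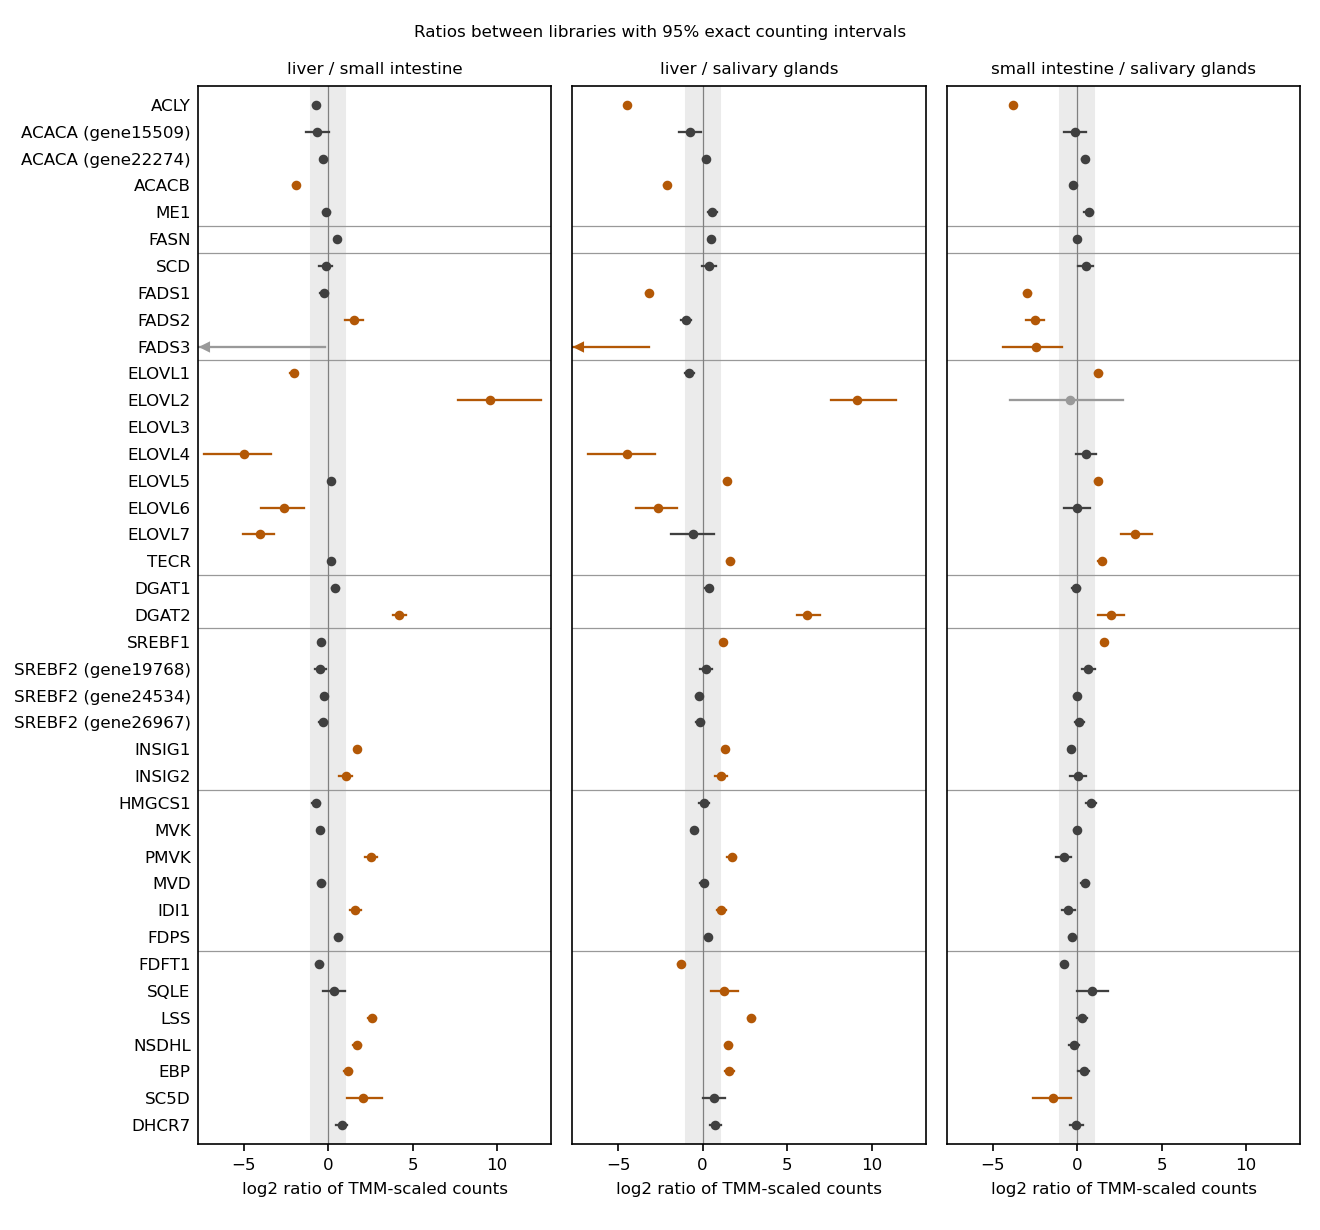
Log2 ratio of TMM-scaled counts for each of the 39 genes in the 3 comparisons, with its 95% exact counting interval; the grey band is 2-fold either way, orange marks ratios past it, light grey genes under 10 counts in both libraries, and an arrow a count of 0 in the first library. LSS, NSDHL and EBP lie right of the band in both comparisons of the liver and inside it in the third.

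A gene was tested in a comparison when 1 of its 2 libraries had at least 10 counts, and was called when the ratio was at least 2. Between the liver and the small intestine, 11 of 37 genes tested were higher in the liver, where 24.2% of all genes were, and 5 were higher in the small intestine, where again 24.2% of all genes were. Between the liver and the salivary glands, 13 of 38 genes were higher in the liver (24.9% of all genes) and 7 in the salivary glands (22.9%). By library size alone this split became 10 and 9. Between the small intestine and the salivary glands, 6 of 37 genes were higher in the small intestine (20.6% of all genes), while 5 were higher in the salivary glands (16.9%), and by library size alone 4 and 7. The median log2 ratio of the genes was -0.10, 0.36 and -0.02 in these comparisons, and that of all genes tested 0.07, 0.04 and -0.03. With genes at 0 in a library set at 3 counts there, the second median was 0.34 for these genes and 0.07 for all. The comparisons share libraries and are not independent.

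**Figure D4:**
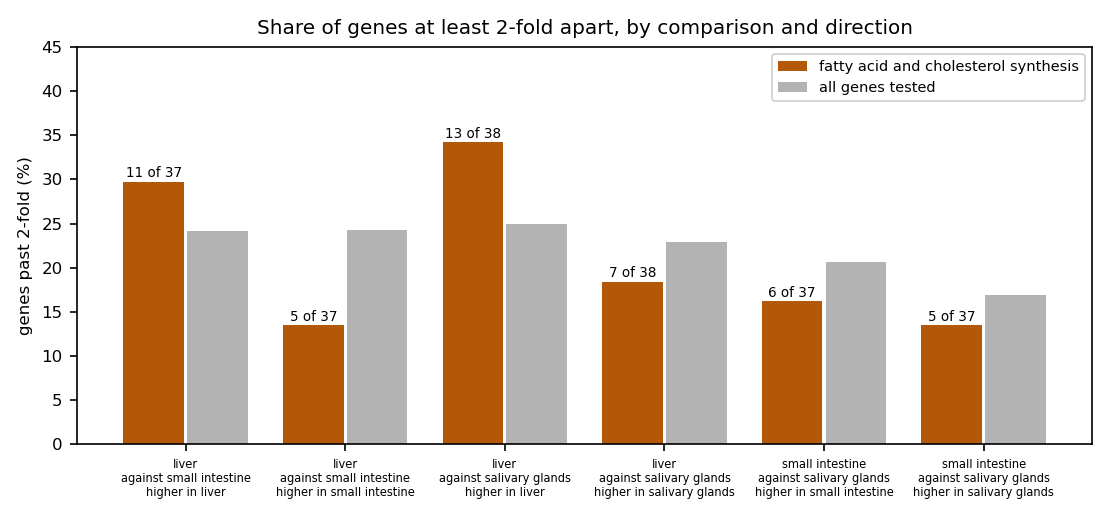
Percent of genes at least 2-fold apart in each comparison and direction, for the genes of fatty acid and cholesterol synthesis (orange, with the number called of those tested) and for all genes tested (grey). The orange bar is above the grey bar for the genes higher in the liver (11 of 37 and 13 of 38) and below it in the other directions.

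The calls are given by branch, with no test between branches. Of the 13 cholesterol enzymes, 6 were higher in the liver than in the small intestine and 0 lower, with a median log2 ratio of 0.80, and 6 were higher in the liver than in the salivary glands and 1 lower (FDFT1). As above, 24.2% and 24.9% of all genes were higher in the liver in these comparisons, and on the list of other cholesterol genes given below 2 of 10 were in each. Between the small intestine and the salivary glands, 12 of these 13 enzymes were within 2-fold and SC5D was higher in the salivary glands; by library size alone 3 were. The fatty acid and triglyceride enzymes went both ways: of 18 tested, 3 were higher in the liver and 5 in the small intestine, of 19 tested, 4 were higher in the liver and 6 in the salivary glands, and of 18 tested, 4 were higher in the salivary glands and 5 in the small intestine. Of the 6 regulator models, which hold SREBF2 3 times, 2 and 3 were higher in the liver than in the small intestine and the salivary glands, and 0 were lower. By library size alone, however, 1 was higher in the liver than in the salivary glands.

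Of the 38 genes with at least 10 counts in any library, 9 were at least 2-fold above both other libraries in the liver (ELOVL2, DGAT2, INSIG1, INSIG2, PMVK, IDI1, LSS, NSDHL and EBP), where 16.1% of all genes were. In the salivary glands 3 were (ACLY, FADS1 and FADS3, with 9.00% of all genes), and in the small intestine 2 (ELOVL1 and ELOVL7, with 12.2%). By library size alone these counts were 7, 5 and 1, with FADS2 and FDFT1 added in the salivary glands and ELOVL1, INSIG2 and IDI1 lost. The 3 libraries were within 2-fold of each other for 14 genes, where 35.0% of all genes were. Among them were FASN, SCD, ME1, DGAT1, HMGCS1, MVK, MVD, FDPS and all models of ACACA and SREBF2. The 2 ACACA and 3 SREBF2 models were counted singly here, though RefSeq MJ_LKY holds 1 gene for each name.

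Other genes of these pathways were taken from a list of 47 names, of which 44 were matched by product to 50 genes. Between the liver and the small intestine, 13 of 42 tested were higher in the liver and 8 in the small intestine, where 24.2% of all genes were in each direction. Between the liver and the salivary glands 9 of 43 were higher in each (24.9% and 22.9% of all genes), and between the small intestine and the salivary glands 9 of 44 were higher in the salivary glands (16.9%) and 3 in the small intestine (20.6%). The highest of them by FPKM on the cholesterol side were MSMO1, which removes methyl groups of lanosterol, and SOAT1, which esterifies cholesterol. MSMO1 (gene6634) had an FPKM of 10.4, 22.7 and 67.3 (132, 302 and 1050 counts), and the liver was 4.70-fold above the small intestine (3.92 to 5.68) and 2.31-fold above the salivary glands (2.03 to 2.63). SOAT1 had 9.76, 20.9 and 63.3 (197, 463 and 1748 counts), with liver ratios of 5.24 (4.52 to 6.10) and 2.51 (2.26 to 2.78). On the fatty acid side HACD3, the dehydratase of the elongation cycle, had 12.1, 18.9 and 65.7 (242, 426 and 1905 counts), and ACSL3, which activates long chains, had 36.5, 19.5 and 59.8 (820, 487 and 1906 counts).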

How the data were processed

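RNA of 3 tissues of 1 animal was sequenced in pairs, 1 library per tissue. The authors aligned reads with TopHat2 as unstranded pairs to the *M. javanica* genome, joined new genes from reads outside annotated ones, and annotated genes by BLASTX; the genome build is not given in the sources used here. The deposited tables hold whole-number counts per gene (the study's methods name RSEM for the FPKM by which tissues were compared, and do not state whether it made these counts), FPKM computed by the authors, and a score that the authors made from each count with 1 edgeR scaling factor per library, read only to check the counts. The FPKM lay near the scale of TMM, not of library size: over genes of at least 50 counts, the median log2 of the FPKM ratio over the TMM-scaled count ratio was 0.003, 0.11 and 0.10 in the 3 comparisons.

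Counts were scaled by TMM in edgeR 4.0.16 (factors 0.851, 1.17 and 1.00 for the small intestine, salivary glands and liver). Ratios carry 95% exact (Clopper-Pearson) counting intervals from scipy 1.17.1, which cover counting error only. Genes with at least 10 counts in 1 of the 2 libraries were tested, and a ratio of at least 2 was called. With 1 library per group there was no test and no replicate error. The floor for a library at 0 was 3 counts. Alternatives were library size alone, size factors of DESeq2 1.42.0, no minimum count, the whole interval past 2-fold, and 2-fold with a q-value under 0.005 by the MA-plot method of DEGseq, which compares 2 libraries and not tissues. The ratio of FPKM and the summing of gene models with 1 product were added after seeing the data. The code was tested on simulated data: of genes changed 4-fold, 100% were past 2-fold in the comparison of liver and small intestine (15754 genes), and so were 111 of the genes left unchanged (105 and 155 in the other comparisons, on 15683 and 15430 genes). All matched members are named. Of other lists, the 2 genes of highest FPKM are named (per side for the pathway list), with marker genes at or near 0. Lipoprotein lipase, CIDEC and the amylase gene were also named, after their values were seen. The members and lists were chosen with earlier results of these data known. RefSeq MJ_LKY holds 1 gene for each of the 38 names. Sequences were not analysed here.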

Additional observations from a re-analysis of the deposited data

How the results depend on the processing

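The counts of genes past 2-fold in the 3 comparisons, and of genes above an FPKM of 1 in the 3 libraries, stayed within 1.5 times under each alternative run. Under the ratio's whole counting interval the calls went from 16 to 13, from 20 to 17 and from 11 to 9, and at an FPKM above 5 the expressed genes went from 35, 33 and 33 to 27, 28 and 28. Library size alone moved the median log2 ratio of all genes from 0.07, 0.04 and -0.03 to 0.31, -0.18 and -0.48. It moved 61 of 111 single ratios out of their counting interval, without reversing the direction of a called one. The ratio of FPKM moved 29, and median-of-ratios size factors moved 0. Calls lost by library size alone were SREBF1 (log2 0.97), INSIG2 (0.88) and IDI1 (0.88) in the liver against the salivary glands. ELOVL1 (0.79) and ELOVL5 (0.79) were lost in the small intestine against the salivary glands. By library size alone, DHCR7 passed 2-fold in the liver against the small intestine (log2 1.04), FADS2 (-1.19) and ELOVL1 (-1.01) were past it in the liver against the salivary glands, and PMVK (-1.26) and FDFT1 (-1.25) in the small intestine against the salivary glands. By the ratio of FPKM, FADS2 in the liver against the salivary glands (-1.18) and SQLE in the small intestine against the salivary glands (1.06) passed it. The cause was not tested. No paired analysis was possible because each tissue has 1 library, and no library could be left out. Depth limits ELOVL2, ELOVL4, ELOVL6, FADS3 and SC5D, each with 10 counts or fewer in a library.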

Other observations

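These genes were chosen after their values were seen. FADS6, a desaturase of unsettled substrate, had an FPKM of 1.44, 2.35 and 58.4 (58, 72 and 1986 counts) for small intestine, salivary glands and liver, so the liver was 20.2-fold above the small intestine (95% counting interval 15.6 to 26.7) and 18.3-fold above the salivary glands (14.5 to 23.5). MLXIPL, the carbohydrate-responsive factor that acts beside SREBF1 on lipogenic genes, had 0.357, 3.41 and 56.2 (27, 326 and 7967 counts), and the liver was 174-fold above the small intestine (120 to 265) and 16.2-fold above the salivary glands (14.5 to 18.2). MLXIPL was thus highest in the liver, where SREBF1 was second to the small intestine.

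A gene with the symbol FADS2 but the product FADS2P1-like (gene20463) had 142 counts in the small intestine library (FPKM 6.38) and 0 in the others. It was at least 80.1-fold higher there than in the liver and at least 53.2-fold higher than in the salivary glands, against a floor of 3 counts per library. FADS2 itself was lowest in the small intestine library, at an FPKM of 1.15.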
